A study of Homo sapiens with 6 samples.

Results

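The zinc finger genes described here lie side by side in a gene cluster on the long arm of human chromosome 19, in the proximal part of band 19q13.4. A probeset, the group of array probes that is summarised to 1 value, was a member if it carried 1 gene symbol made of ZNF and a number and if that gene starts between 51.5 and 54 Mb of chromosome 19 (GRCh38). Of the 32321 probesets on the array, 451 carried such a ZNF symbol and a chromosome, and 37 of these, for 36 genes, were members. ZNF616 was the gene with more than 1 probeset. The cluster was chosen for its falls in the TRIM71 line, that is, on the same 6 arrays and the same comparison described below. Its counts and fold changes are therefore given as a description, and no p-value is given for a member.

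The arrays came from 2 groups of 3. One is a line of HEK293 Flp-In cells that constitutively expresses TRIM71, a stem cell protein that binds RNA through its NHL domain, with a FLAG-HA tag, and was kept in 50 µg/ml hygromycin B. The other is its parental HEK293 Flp-In line, labelled wild-type, for which the drug is not named. Both were grown in DMEM with glutamine and fetal calf serum. HEK293 is an established line of human embryonic kidney origin, and Flp-In cells carry a recombination site for a transgene. The labels do not say whether the TRIM71 line is 1 clone, so transgene, drug, clone and time in culture cannot be told apart. They give the experiment as done in triplicate without saying what was repeated, so p-values speak only of the spread among these arrays, possibly a technical one.

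TRIM71 itself was at 10.63, 10.86 and 10.72 on the TRIM71 arrays, against 7.23, 7.54 and 7.44 on the parental arrays (log2 values; two-sided exact permutation p = 0.1, the smallest that 3 against 3 arrays allow). Over all probesets, arrays correlated at 0.996 to 0.997 (Pearson's r) within groups and at 0.991 to 0.994 between groups. The 8 genes fixed as marks of HEK293 cells, such as VIM and KRT8, averaged 6.26 to 11.51 in the TRIM71 line and 6.54 to 12.41 in the parental line. Of the 8, 3 rose, 2 fell and 3 were not called in limma, and the widest difference was that of the neurofilament NEFL, at 10.96 ± 0.05 in the TRIM71 line and 12.41 ± 0.04 in the parental line. Over all probesets with 1 gene symbol, 9.93% rose and 12.1% fell in the same fit. Of 11 measured markers of leukocytes, endothelium, hepatocytes, erythroid cells and fibroblasts, 0 fell and 1 rose, the endothelial receptor KDR, at 6.42 ± 0.33 in the TRIM71 line and 4.99 ± 0.14 in the parental line. By unadjusted p under 0.05 in limma, 1 of them was lower. Their part in the falls below was not tested.

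Most genes of this cluster encode proteins with a row of C2H2 zinc fingers, each holding a zinc ion, that read DNA sequence, joined in many of them to a KRAB domain. The KRAB domain recruits TRIM28, a scaffold that brings in the histone methyltransferase SETDB1 and heterochromatin proteins, and many of these repressors bind transposable elements. The family grew by tandem duplication, so neighbouring genes are often close copies, and their transcripts can share probe sequence. Proteins of the cluster with reported functions include ZNF350, a repressor that works with BRCA1, ZNF808, which is needed for human pancreas development, and ZNF331, an imprinted gene in some tissues.

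Promoters are shown because many members share sequence there. RefSeq promoters, 250 bases before to 50 after the gene start (build GRCh38.p14), were at hand for 30 of the 36 genes. Printed 5′ to 3′ in the direction of the gene are the promoters of 4 members with large falls, of ZNF578, whose dim probeset was not called, and of ZNF614, which had a clear signal and was not called. Capitals mark CCGGAAG or its reverse complement, the core of the site that ETS transcription factors are known to bind.
ZNF528: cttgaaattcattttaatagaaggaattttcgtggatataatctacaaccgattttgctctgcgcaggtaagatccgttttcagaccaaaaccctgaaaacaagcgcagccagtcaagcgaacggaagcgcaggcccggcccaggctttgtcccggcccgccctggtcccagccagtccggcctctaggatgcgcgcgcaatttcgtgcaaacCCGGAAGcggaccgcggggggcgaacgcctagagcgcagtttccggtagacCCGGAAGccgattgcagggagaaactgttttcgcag
ZNF808: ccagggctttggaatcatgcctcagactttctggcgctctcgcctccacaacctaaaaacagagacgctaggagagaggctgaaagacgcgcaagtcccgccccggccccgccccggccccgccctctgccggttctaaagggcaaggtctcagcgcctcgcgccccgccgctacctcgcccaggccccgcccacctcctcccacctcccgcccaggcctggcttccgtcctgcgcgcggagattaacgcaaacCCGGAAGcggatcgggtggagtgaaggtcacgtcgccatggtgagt
ZNF611: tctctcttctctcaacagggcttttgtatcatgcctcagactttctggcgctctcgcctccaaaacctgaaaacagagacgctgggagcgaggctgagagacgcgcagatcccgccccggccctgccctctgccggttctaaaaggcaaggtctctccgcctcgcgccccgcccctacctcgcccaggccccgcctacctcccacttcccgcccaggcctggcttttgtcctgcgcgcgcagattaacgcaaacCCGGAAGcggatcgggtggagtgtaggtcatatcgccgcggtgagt
ZNF841: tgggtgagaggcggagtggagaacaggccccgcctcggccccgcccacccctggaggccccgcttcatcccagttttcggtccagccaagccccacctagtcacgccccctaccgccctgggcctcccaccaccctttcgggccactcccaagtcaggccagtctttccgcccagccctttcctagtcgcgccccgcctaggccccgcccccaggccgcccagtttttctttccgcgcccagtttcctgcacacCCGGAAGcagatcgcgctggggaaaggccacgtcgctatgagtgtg
ZNF578: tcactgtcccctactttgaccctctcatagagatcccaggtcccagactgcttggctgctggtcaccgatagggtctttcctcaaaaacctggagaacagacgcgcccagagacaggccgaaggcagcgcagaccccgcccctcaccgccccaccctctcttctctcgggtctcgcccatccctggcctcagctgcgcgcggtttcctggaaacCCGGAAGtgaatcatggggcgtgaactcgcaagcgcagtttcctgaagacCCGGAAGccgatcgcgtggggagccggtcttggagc
ZNF614: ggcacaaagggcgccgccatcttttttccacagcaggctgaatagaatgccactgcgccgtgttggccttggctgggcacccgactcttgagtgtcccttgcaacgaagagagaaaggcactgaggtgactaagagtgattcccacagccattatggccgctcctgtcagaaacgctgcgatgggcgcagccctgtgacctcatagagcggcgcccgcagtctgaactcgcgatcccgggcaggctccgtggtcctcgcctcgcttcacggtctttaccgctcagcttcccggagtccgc
These lie at chr19:52397599-52397898 on the plus strand for ZNF528, chr19:52527418-52527717 on the plus strand for ZNF808 and chr19:52734995-52735294 on the minus strand for ZNF611. The other three lie at chr19:52095716-52096015 on the minus strand for ZNF841, chr19:52453303-52453602 on the plus strand for ZNF578 and chr19:52028330-52028629 on the minus strand for ZNF614. ZNF808 and ZNF611 were 83.1% identical over an alignment of the whole window, and the closest pair of the 435 pairs of member promoters, ZNF701 and ZNF845, was 86.0% identical, against a median of 49.7%.

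In the TRIM71 line, 26 of the 37 member probesets (70.3%) were lower and 0 were higher than in the parental line by limma with a Benjamini-Hochberg adjusted p under 0.05 over all probesets. Over the whole array, 8.28% of probesets fell and 7.95% rose at the same adjusted p. At an unadjusted p under 0.05, 27 members were lower and 1 was higher. By at least 1.5-fold 20 members fell, where 1.8% of all probesets did, and by at least 2-fold 9 fell, where 0.532% did. All 3 TRIM71 arrays lay below all 3 parental arrays for 27 members, as they did for 17.4% of all probesets, and above them for 1 member, as for 17.9% of all probesets. The median log2 fold change, TRIM71 over parental, was -0.60 over the members and 0.003 over all probesets. The falls were chosen for, so these counts stand beside the shares over the array without support from them.

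The 6 arrays separated by group over the cluster as a whole. Each value was set against the probeset's mean over the 6 arrays, and the median over the 37 members was then -0.27, -0.27 and -0.30 (log2) on the TRIM71 arrays, against 0.34, 0.27 and 0.24 on the parental arrays. Every TRIM71 array lay below every parental array on this measure. The cluster was chosen for its falls on these same arrays, so its separation was built in by the choice and is only a description. The ZNF probesets of band 19p12 separated as well, at -0.26, -0.26 and -0.39 on the TRIM71 arrays, against 0.43, 0.33 and 0.21 on the parental arrays. For all ZNF probesets outside the cluster, 19p12 included, the same medians were -0.02, -0.004 and -0.03 on the TRIM71 arrays, against 0.03, 0.02 and 0.02 on the parental arrays.

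**Figure D1:**
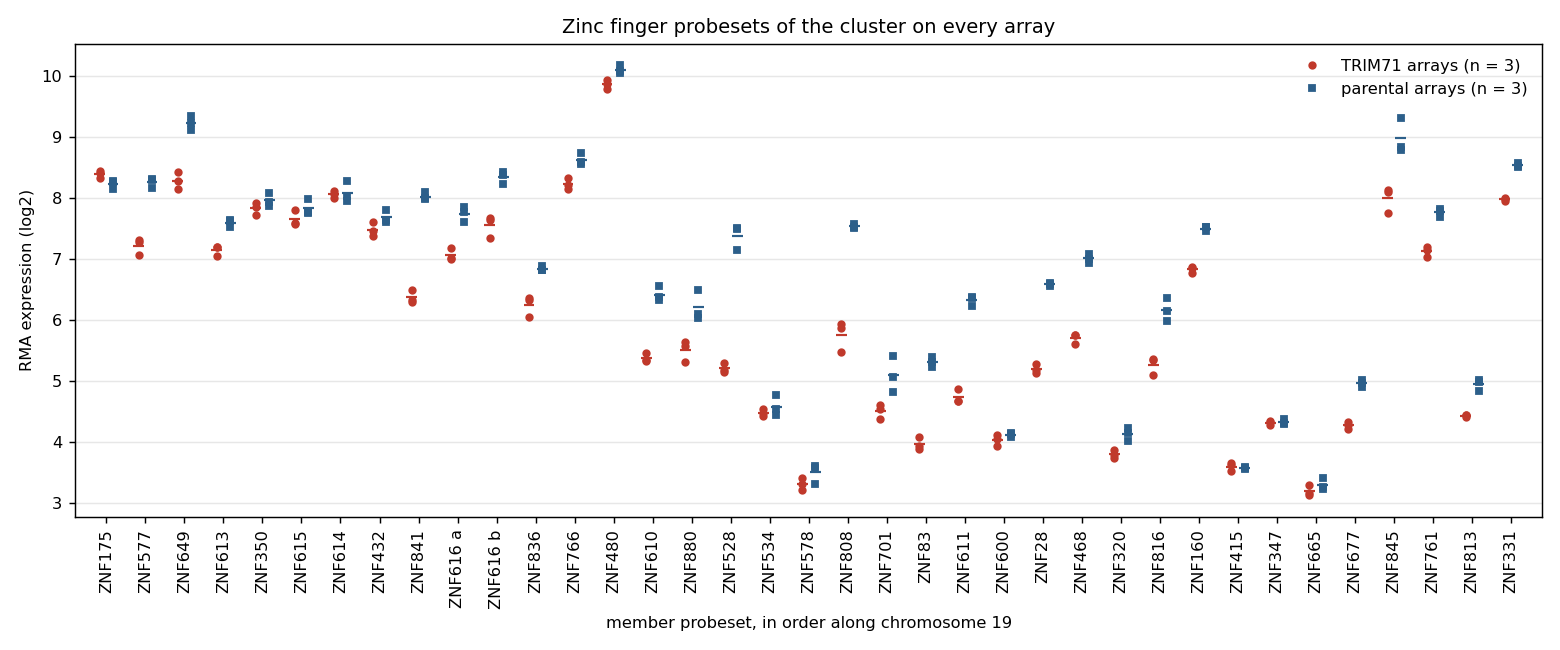
RMA expression (log2, vertical axis) of the 37 member probesets in their order along chromosome 19 (horizontal axis), with 1 point per array, TRIM71 arrays left in red and parental arrays right in blue, and a dash at each group's mean (n = 3). ZNF528, ZNF808 and ZNF841 show the widest gaps between the groups, and 6 dim members from ZNF534 to ZNF665 show nearly none.

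The deepest fall was of ZNF528, a zinc finger gene in the middle of the cluster. Its values were 5.19, 5.30 and 5.16 (log2 expression) on the TRIM71 arrays, against 7.51, 7.50 and 7.16 on the parental arrays. The lowest parental array thus stood well above the highest TRIM71 array, and the log2 fold change was -2.17 (SE 0.10), or 4.51-fold lower. ZNF808, the pancreas gene named above, was at 5.87, 5.95 and 5.49 on the TRIM71 arrays, against 7.58, 7.52 and 7.53 on the parental arrays (log2 fold change -1.77, SE 0.12). The spread lay in the TRIM71 group, where replicate 3 was lowest, and the groups did not overlap. ZNF841 was at 6.30, 6.49 and 6.34 on the TRIM71 arrays, against 7.99, 8.10 and 8.01 on the parental arrays (log2 fold change -1.65, SE 0.07). ZNF611 was at 4.68, 4.87 and 4.67 on the TRIM71 arrays, against 6.24, 6.38 and 6.38 on the parental arrays (log2 fold change -1.59, SE 0.08). In both genes the arrays of a group lay close together and the groups were far apart.

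ZNF28, which lies between ZNF600 and ZNF468, was at 5.18, 5.28 and 5.14 on the TRIM71 arrays, against 6.56, 6.61 and 6.60 on the parental arrays (log2 fold change -1.39, SE 0.05). ZNF83 was at 4.08, 3.94 and 3.90 on the TRIM71 arrays, against 5.40, 5.33 and 5.24 on the parental arrays (log2 fold change -1.35, SE 0.07). ZNF468 was at 5.76, 5.76 and 5.61 on the TRIM71 arrays, against 7.08, 6.95 and 7.02 on the parental arrays (log2 fold change -1.31, SE 0.07). The 3 genes had TRIM71 values far outside the parental spread, although ZNF83 was dim in both lines. ZNF610 was at 5.35, 5.46 and 5.34 on the TRIM71 arrays, against 6.56, 6.33 and 6.38 on the parental arrays (log2 fold change -1.04, SE 0.08). ZNF577, near the centromeric end of the cluster, was at 7.29, 7.32 and 7.08 on the TRIM71 arrays, against 8.18, 8.32 and 8.30 on the parental arrays (log2 fold change -1.03, SE 0.08). These 9 genes made up the falls of at least 2-fold, and each was still called whichever array was left out. They were picked as the largest falls on these same arrays, so neither their gaps nor their kept calls add support.

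A further 11 probesets fell by at least 1.5-fold but by less than 2-fold. ZNF845 averaged 8.01 ± 0.20 in the TRIM71 line and 8.98 ± 0.29 in the parental line (SD, n = 3 each; log2 fold change -0.98), with parental replicate 1 above the other two. ZNF649, a KRAB zinc finger gene beside ZNF577, averaged 8.29 ± 0.14 in the TRIM71 line and 9.24 ± 0.12 in the parental line (-0.95). ZNF816 averaged 5.27 ± 0.15 in the TRIM71 line and 6.17 ± 0.19 in the parental line (-0.90). The 2 probesets of ZNF616 moved alike, at 7.56 ± 0.18 and 7.07 ± 0.10 in the TRIM71 line, against 8.35 ± 0.11 and 7.75 ± 0.13 in the parental line (log2 fold changes -0.79 and -0.68). ZNF677, which is often silenced by promoter methylation in tumours, averaged 4.28 ± 0.06 in the TRIM71 line and 4.97 ± 0.06 in the parental line (-0.69). ZNF880 (-0.70), ZNF160 (-0.67), ZNF761 (-0.64), ZNF836 (-0.60) and ZNF701 (-0.59) completed this class. The groups did not overlap for any of the 11 probesets. Over the whole array, all TRIM71 arrays lay below all parental arrays for 17.4% of probesets. The 11 were picked as called falls of at least 1.5-fold, so their lack of overlap adds no support.

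Of the 26 falls, 6 were smaller than 1.5-fold. They were of ZNF331 (-0.56), the last member at the telomeric end, ZNF813 (-0.51), ZNF613 (-0.45), ZNF766 (-0.40), ZNF320 (-0.33) and ZNF480 (-0.24). ZNF480 averaged 9.87 ± 0.07 in the TRIM71 line and 10.11 ± 0.06 in the parental line, and ZNF766 averaged 8.24 ± 0.09 in the TRIM71 line and 8.63 ± 0.10 in the parental line. Calls held without any 1 array for 21 of the 26 probesets and were lost at least once for 5. The call of ZNF480 was lost whichever array was left out (log2 fold change -0.27 to -0.20). That of ZNF701 was lost without parental replicate 1 (-0.43) or 2 (-0.60) or TRIM71 replicate 1 (-0.52), 2 (-0.63) or 3 (-0.60). That of ZNF320 was lost without parental replicate 1 (-0.28) or 3 (-0.32) or TRIM71 replicate 1 (-0.36), 2 (-0.30) or 3 (-0.32). The calls of ZNF880, without TRIM71 replicate 2 (-0.74) or 3 (-0.61), and of ZNF766, without TRIM71 replicate 1 (-0.36), were lost as well.

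The 11 members that were not called split into 5 with a clear signal and 6 dim ones. ZNF175, the first member at the centromeric end, was at 8.41, 8.45 and 8.34 on the TRIM71 arrays, against 8.29, 8.16 and 8.26 on the parental arrays (log2 fold change 0.17, 95% interval 0.03 to 0.31). It was the member whose TRIM71 arrays all lay above its parental arrays. ZNF614 averaged 8.07 ± 0.06 in the TRIM71 line and 8.09 ± 0.17 in the parental line (log2 fold change -0.02, 95% interval -0.24 to 0.20). ZNF350, the repressor that works with BRCA1, averaged 7.84 ± 0.10 in the TRIM71 line and 7.97 ± 0.10 in the parental line (-0.13, 95% interval -0.31 to 0.06). ZNF615 (-0.18) and ZNF432 (-0.20) were the other two of this kind, and ZNF432 had all TRIM71 arrays below all parental ones. The dim members were ZNF534, ZNF578, ZNF600, ZNF415, ZNF347 and ZNF665, with parental means of 3.31 to 4.59 and log2 fold changes of -0.19 to 0.02. The smallest differences among them were those of ZNF347 (-0.01, 95% interval -0.12 to 0.11) and ZNF415 (0.02, 95% interval -0.10 to 0.14). ZNF320, within the same range of parental means, was called, at 3.81 ± 0.06 in the TRIM71 line and 4.14 ± 0.11 in the parental line.

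Position in the cluster went with the calls as follows. From ZNF841 to ZNF331, the telomeric stretch of 29 probesets, 23 fell (parental means 4.14 to 10.11), and the 6 that were not called were the dim ones. From ZNF175 to ZNF432, the first 8 probesets, 3 fell, namely ZNF577, ZNF649 and ZNF613, and the 5 uncalled members had parental means of 7.69 to 8.24. The longest run of neighbouring falls was of 9 probesets, from ZNF841 to ZNF528. It passes through ZNF480, and without any 1 of parental replicates 1, 2 and 3 or TRIM71 replicates 1, 2 and 3 the longest run was of 5 probesets. The border at ZNF841 was drawn after the values had been seen. The size of the fall did not follow that of the next member in the row (Spearman's rho 0.08 over 36 neighbouring pairs, which share all 6 arrays). At the edges of the window, ZNF473, the nearest ZNF gene on the centromeric side, averaged 9.35 ± 0.05 in the TRIM71 line and 9.31 ± 0.02 in the parental line. ZNF628, the nearest on the telomeric side, averaged 7.22 ± 0.05 in the TRIM71 line and 7.20 ± 0.06 in the parental line. Their inner neighbours were ZNF175 and ZNF331.

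Genes of other families also lie in the window. Of 23 such probesets in the window, 1 fell and 0 rose in limma (2 and 0 at an unadjusted p under 0.05), with a median log2 fold change of -0.01. That is 4.35% fallen, near the 8.28% of all probesets, and 4 of the 23 reached the median level of the array, below which 3.14% of all probesets fell. The one that fell was LINC01530, a long noncoding RNA gene next to ZNF175, at 6.56 ± 0.05 in the TRIM71 line and 6.93 ± 0.01 in the parental line (-0.37). PPP2R1A, the scaffold subunit of protein phosphatase 2A, stands between ZNF836 and ZNF766, which both fell. It averaged 11.34 ± 0.01 in the TRIM71 line and 11.47 ± 0.02 in the parental line (-0.12) and was not called. Of 5 microRNA genes in the window, 0 were called in limma, also at an unadjusted p under 0.05, among them those of miR-99b, let-7e and miR-125a. Of 3 probesets of ZNF pseudogenes 0 were called (1 lower at an unadjusted p under 0.05, median log2 fold change -0.13). Both sets were dim, with median levels of 4.79 and 3.90 (log2), and 0 of either reached the median level of the array. Few probesets are called at such levels, so these counts say little about the genes.

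**Figure D2:**
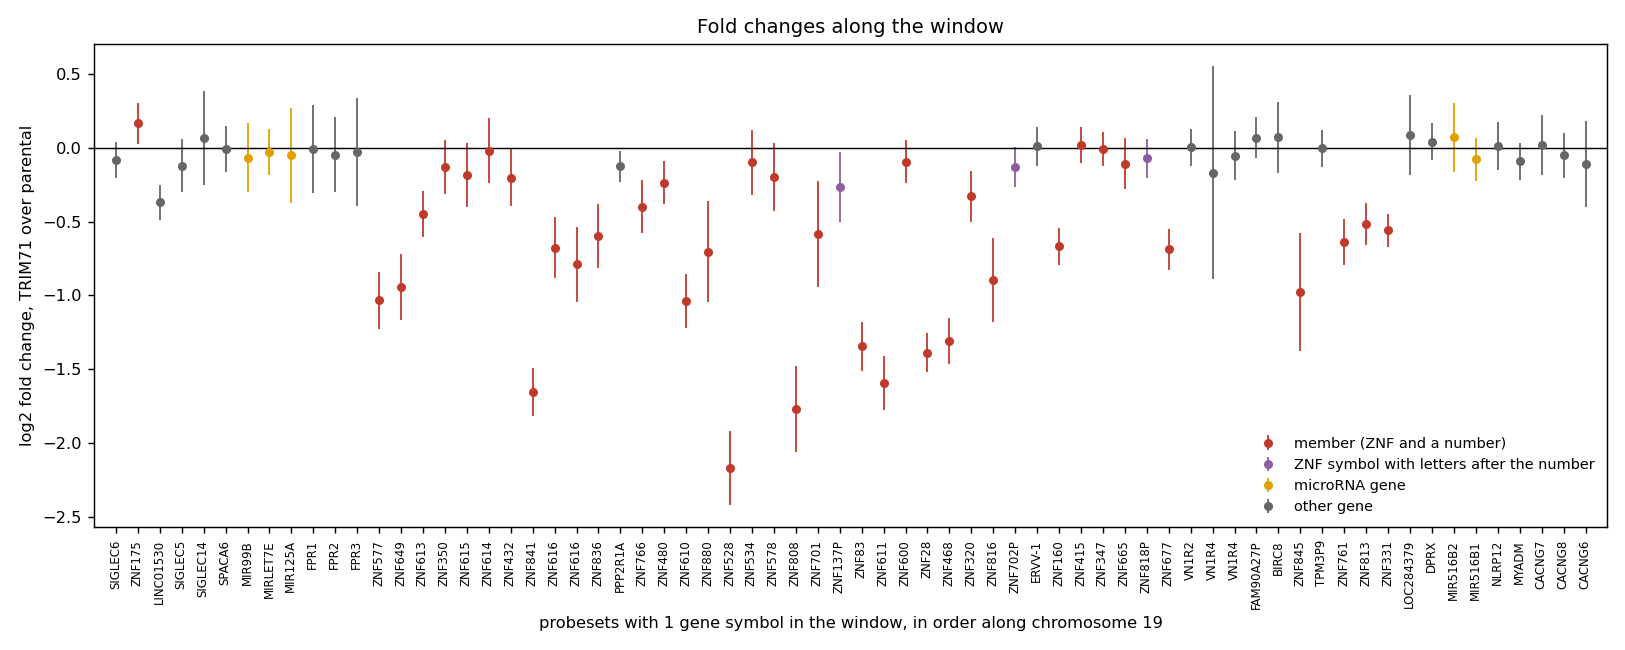
Log2 fold change, TRIM71 over parental (vertical axis), of every probeset with 1 gene symbol in the window, in order along chromosome 19 (horizontal axis), with 95% intervals from the limma fit. Members in red reach -2.17 at ZNF528, while the grey points of other genes lie between -0.37 (LINC01530, which fell) and 0.09.

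Close copies raise the question of which transcript a probeset reads. On top of the members, 5 probesets were annotated to several genes of which at least 1 was a member. The one that named 10 ZNF genes averaged 7.21 ± 0.05 in the TRIM71 line and 7.71 ± 0.03 in the parental line (-0.50). One that named 9 ZNF genes averaged 10.22 ± 0.08 in the TRIM71 line and 10.87 ± 0.11 in the parental line (-0.65), and one that named ZNF761, ZNF525, ZNF845 and ZNF765 averaged 10.57 ± 0.15 in the TRIM71 line and 11.19 ± 0.12 in the parental line (-0.61). These 3 fell, and the other two, which also named a ribosomal protein gene, were not called. Whether probes of 1 member also read the RNA of another was not tested, so falls of neighbouring copies need not be separate events.

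By parental level, in classes set after the values had been seen, the falls were spread as follows. Of the 9 members with a parental mean under 5, 3 fell (median log2 fold change -0.11). Of the 8 from 5 to 7, 8 fell, with log2 fold changes of -1.59 to -0.59. Of the 20 at 7 or more, 15 fell, with log2 fold changes over the whole class of -2.17 to 0.17. Calls depended on level over the whole array too. By mean over the 6 arrays in place of the parental mean, 1.09% of all probesets under 5 fell. From 5 to 7 it was 5.3%, and at 7 or more 13.5%. Spearman's rho between fold change and parental mean was -0.20 over all 37 members, but 0.37 over the 28 with a parental mean of 5 or more. A fold change and a level from the same arrays share their error, so these values describe the members only. Probes also differ in how well they bind, so levels do not rank the genes by RNA amount.

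**Figure D3:**
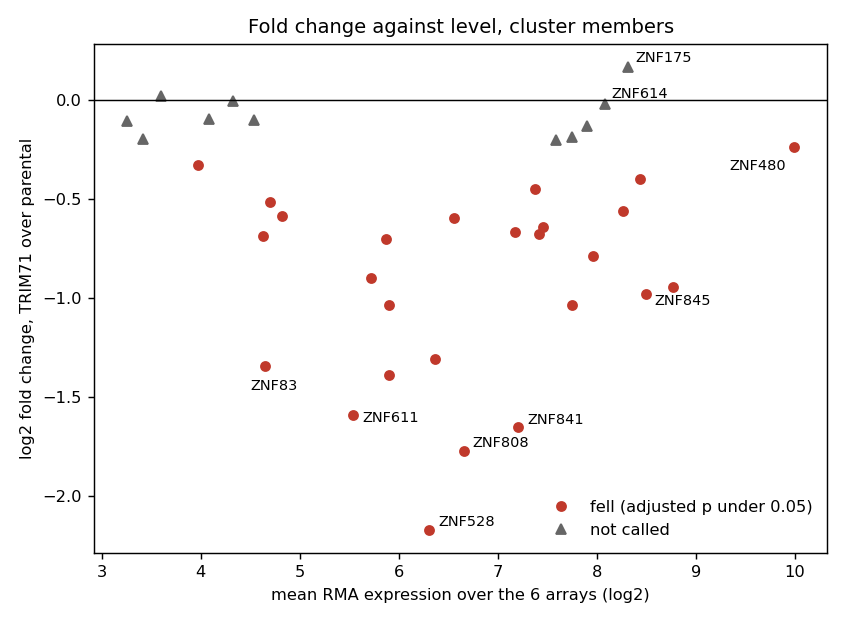
Log2 fold change, TRIM71 over parental (vertical axis), against mean RMA expression over the 6 arrays (log2, horizontal axis) for the 37 member probesets, red circles for those that fell and grey triangles for those not called. The deepest falls, ZNF528 (-2.17) and ZNF808 (-1.77), stand at means that include their fallen TRIM71 values, and ZNF175 (0.17) and ZNF614 (-0.02) stand near 0.

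Set beside other ZNF genes, the cluster had counts and a median nearest those of band 19p12 (regions by gene start). There, 23 of 37 probesets fell and 1 rose, with a median of -0.63. At 19q13.1, 9 of 29 fell and 2 rose (median -0.14), and near the end of the long arm 11 of 47 fell and 4 rose (median -0.07). At 19q13.31, 3 of 20 fell and 1 rose (median -0.004), and elsewhere on chromosome 19, 6 of 56 fell and 5 rose (median 0.0003). Among 225 ZNF probesets outside chromosome 19, 34 fell and 28 rose (median -0.003). The differences between regions were not tested, since the cluster was picked by this comparison.

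**Figure D4:**
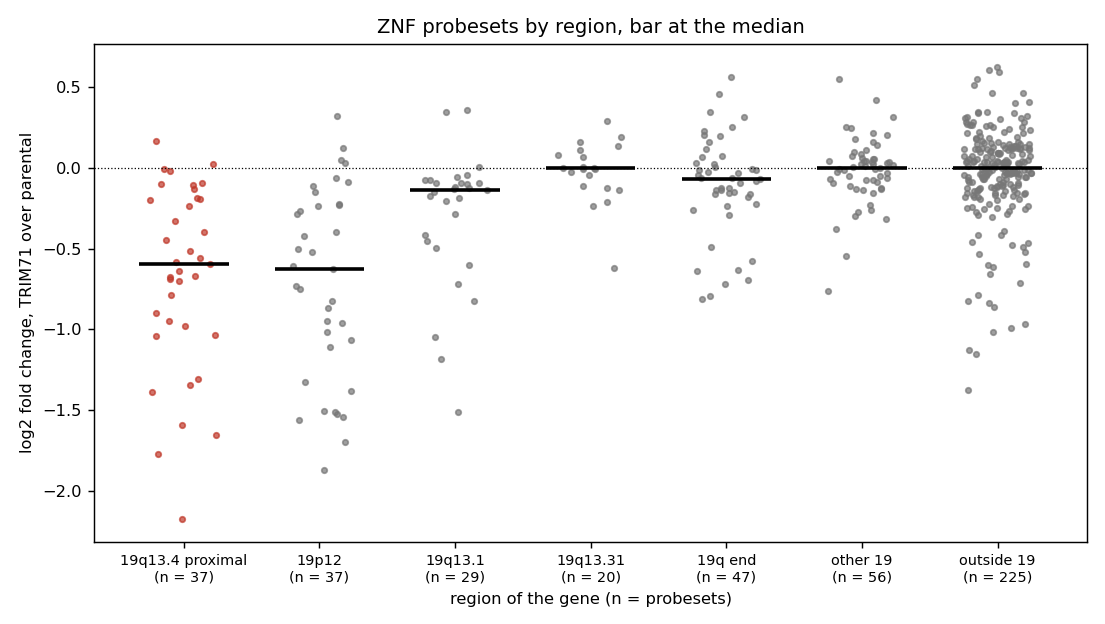
Log2 fold change, TRIM71 over parental (vertical axis), of each ZNF probeset by the region its gene lies in (horizontal axis), with a bar at the median. The medians of the 19q13.4 proximal cluster (-0.60) and of 19p12 (-0.63) lie below those of the other regions, whose medians lie between -0.14 and 0.0003.

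The promoters of the members were rich in CpG and in the ETS core. They held 14 to 34 CpG in 300 bases, with a median of 25, against a median of 22 in 375 promoters of other ZNF genes and 14 in all 27305 promoters. CCGGAAG, searched on both strands, was in 18 of the 30 member promoters (60%), 39.2% of other ZNF promoters and 10.7% of all promoters. Its 20 copies in members began between 47 bases upstream of the gene start and 17 bases into the gene. Among the 18 members with it, 13 fell and the median log2 fold change was -0.68, and among the 12 without it, 8 fell and the median was -0.57. Many members are close copies and are not separate cases, so these are descriptions of the sequences.

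The core often stood in a longer shared stretch. ACCCGGAAGC, which contains CCGGAAG and is the most frequent run of 10 bases around it in the member promoters, was in 11 of 30, against 2.93% of other ZNF promoters and 0.494% of all promoters. It can be seen in the printed promoters of ZNF528, ZNF808, ZNF611, ZNF841 and ZNF578. Of the 11 members with it, 10 fell (median -0.90), and of the 19 without it, 11 fell (median -0.45). The most frequent run of 10 bases of any kind in the member promoters, AGGCCCCGCC, which can overlap GGGCGG on the other strand, was in 15 of 30, against 11.2% of other ZNF promoters and 3.13% of all promoters. Of the 15 with it 14 fell (median -0.69), and of the 15 without it 7 fell (median -0.20). Both runs were picked for being frequent in the member promoters, so a higher share there than elsewhere was favoured by the choice. Both runs occur in close copies such as ZNF808 and ZNF611, so the members with a run are not separate cases, and no test was made. Every member with either run lies in the stretch from ZNF841 to ZNF331, where 23 of 29 probesets fell. No promoter at hand from ZNF175 to ZNF432 held either run, so these counts do not tell run and position apart.

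Other motifs were searched on both strands too. GGGCGG, the GC box of Sp1-like factors, was in 80% of member promoters, 63.7% of other ZNF promoters and 44.6% of all promoters. CCAAT was in 30% of member promoters, 50.1% of other ZNF promoters and 35.7% of all promoters. TATAAA was in 0 of 30 member promoters, 3.47% of other ZNF promoters and 12% of all promoters. TGACGTCA, the cyclic AMP response element, was in 0 of 30 member promoters, 4.27% of other ZNF promoters and 1.98% of all promoters. TGATGCAA, of the kind bound by ATF4 with C/EBP partners, was in 1 of 30 member promoters, 0% of other ZNF promoters and 0.923% of all promoters. The palindromic NRF1 site was in 1 of 30 member promoters, 2.67% of other ZNF promoters and 1.36% of all promoters. AAGATGGCG, of the kind bound by YY1, was in 2 of 30 member promoters, 2.67% of other ZNF promoters and 1.85% of all promoters.

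Most measured genes of the silencing machinery that KRAB zinc finger proteins use were not called. Of 35 listed genes 32 were measured, and by limma at an adjusted p under 0.05, 7 fell (21.9%), 3 rose (9.38%) and 22 were not called. Over all probesets with 1 gene symbol, 12.1% fell and 9.93% rose, and the median of the list was -0.02. TRIM28, the scaffold, was at 11.46, 11.45 and 11.47 on the TRIM71 arrays, against 11.46, 11.50 and 11.48 on the parental arrays (log2 fold change -0.02, limma adjusted p = 0.85). SETDB1 averaged 8.99 ± 0.06 in the TRIM71 line and 9.14 ± 0.04 in the parental line (-0.15, limma adjusted p = 0.11). The largest falls in the list were of ZNF274, a KRAB zinc finger gene near the end of the long arm whose product is known to bind zinc finger gene clusters, and of SUV39H1, a histone methyltransferase. ZNF274 averaged 8.32 ± 0.05 in the TRIM71 line and 8.82 ± 0.03 in the parental line (-0.49, limma adjusted p = 0.0019). SUV39H1 averaged 8.60 ± 0.08 in the TRIM71 line and 9.02 ± 0.09 in the parental line (-0.43, limma adjusted p = 0.0096). The other called falls were of CHD3 (-0.38), MBD2 (-0.35), ATF7IP (-0.30), KDM4A (-0.29) and CBX5 (-0.26). The DNA methyltransferase DNMT3B (0.41, limma adjusted p = 0.0035) and the histone deacetylase HDAC1 (0.28, limma adjusted p = 0.011) rose most, and ATRX (0.27) rose as well. When tested against a fold of 1.2 in place of no change, 0 of the 32 were called in either direction by limma (3 lower and 1 higher at an unadjusted p under 0.05). The share of all probesets called against that fold is not given here, so this count cannot be set beside the array.

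Of 8 listed genes derived from endogenous retroviruses, 7 were measured, 2 rose, 0 fell and 5 were not called, where 9.93% of probesets with 1 gene symbol rose and 12.1% fell. ERV3-1, which lies on another chromosome, averaged 8.99 ± 0.07 in the TRIM71 line and 8.46 ± 0.05 in the parental line (0.52, limma adjusted p = 0.0024). ERVH48-1 averaged 6.35 ± 0.04 in the TRIM71 line and 5.82 ± 0.14 in the parental line (0.54, limma adjusted p = 0.0063). ERVV-1, an envelope gene that stands inside the zinc finger cluster, was dim at 4.62 in the TRIM71 line and 4.61 in the parental line and was not called (0.01). At an unadjusted p under 0.05, 0 of the 7 were lower in limma. Tested against a fold of 1.2, 0 of the 7 were called (2 higher at an unadjusted p under 0.05), again without a share over all probesets to set beside it.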

How the data were processed

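RNA of 6 samples, 3 of the TRIM71 line and 3 of the parental line, was measured on Affymetrix arrays. The deposited values were log2 expression, 1 column per array, made by the authors with RMA and affy, per the submitters' processing notes. RMA equalises the distribution of the arrays, so a change in total mRNA per cell cannot be seen. Tool versions and the genome build are not given in the sources used here. Array medians lay between 6.90 and 6.97, and the number of arrays limits the precision.

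Of 32321 probesets, the array annotation gave 19158 exactly 1 gene symbol and 1388 several, and left 11775 unnamed. Members were placed by gene ID through the RefSeq gene table of GRCh38.p14, as the array annotation names no build. TRIM71 and parental arrays were compared by limma 3.58.1 (lmFit, eBayes; R 4.3.3) over every probeset, with no filter, and p-values were adjusted over every probeset. The fit was tested on simulated data with independent noise for each probeset. Changes were planted only at or above the lower quartile of level, so that test does not cover dimmer members or shared signal of close copies. Intervals are 95% limma intervals. A listed gene with several probesets was read from its brightest. Promoters were read from RefSeq and aligned with Biopython 1.88.

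The members and lists were chosen with earlier results of these data known. Named with values were called members changed at least 1.5-fold, called rises, and of the rest the 3 with the highest mean, the 3 nearest 0, genes with several probesets and the window's edges. Further members (ZNF350, ZNF613, ZNF813, ZNF320, ZNF615, ZNF432 and the dim ones) were named after their values were seen. Of the lists, the rule was to name up to 2 called genes per direction. TRIM28, SETDB1, ERVV-1 and the remaining called cofactors were named outside this rule, with their values known. Alternatives were an intensity trend, other normalizations, filters, 1 probeset per gene, array weights, stricter tests, a replicate block, other member rules and each array left out.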

Additional observations from a re-analysis of the deposited data

How the results depend on the processing

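With 1 exception, the filter at the median, 0 members rose in every setting. The number that fell stayed between 20 and 26, except under that filter and in the test against a fold of 1.2. With a filter at the median of all probesets, which leaves 17 members, 12 fell and 1 rose (ZNF175, log2 fold change 0.17), the median was -0.56, and 1 retroviral gene rose. With a filter at the lower quartile, which leaves 26 members, 21 fell and the median was -0.69. Tested against a fold of 1.2, 17 members fell, and 0 cofactors fell or rose, 0 retroviral genes rose and 0 window neighbours fell. With an adjusted p under 0.01, 20 members and 5 cofactors fell and 1 cofactor rose. Shares over all probesets are not given here for these settings, so the counts show only how the calls depend on them. With an intensity trend, with or without robust estimation, 2 neighbours fell in place of 1. With the window moved 0.5 Mb inward, which leaves 30 members, the median was -0.65.

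Without 1 array each, 22 to 24 members fell and 0 rose, the median lay between -0.66 and -0.57, and 1 to 2 neighbours fell, 2 without parental replicate 1. TRIM71 stayed called in every setting. Of the 26 called members, 17 kept direction and call in every setting run for them. Near 0, the sign turned for ZNF614 with array weights (0.032) and within -0.088 to 0.076 without 1 array, for ZNF347 within -0.024 to 0.017 and for ZNF415 within -0.0043 to 0.055. The cause was not tested where the construction of the setting does not show it.

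Deviations from the group means, over all probesets, correlated at 0.07, -0.19 and 0.11 between samples with the same replicate number. Correlations between samples with different numbers are not given here, so these values cannot decide whether the number pairs the samples. With the replicate block, 23 members fell and 0 rose.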
